A study of Mus musculus with 24 samples.

Results

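Arntl and Clock encode BMAL1 and CLOCK, the 2 activators at the head of the circadian clock, and their transcripts were followed in inguinal fat of mice with and without Bmal1 in adipocytes. They were taken by symbol from the probe sets with exactly 1 gene in the platform annotation, which makes 2 genes of the 19938 tested. Each had a single such probe set, 10556463 for Arntl and 10530733 for Clock, so there was no second reading of either gene. The study has 24 Affymetrix arrays, 1 per mouse, in 8 groups of 3. Knockout mice (Ad-Bmal1-/-) carried the genotype aP2-Cre+/- Bmal1fx/fx and control mice Bmal1fx/fx, so both carried the floxed alleles, and the controls carried no Cre. Each genotype was sampled at 4 circadian times, CT0 (where the subjective day begins), CT6, CT12 and CT18. All groups were of C57BL/6J background, ate chow, had been in constant darkness for 36 h before collection began and were fasted for 24 h. The labels give neither age nor the part of Bmal1 that is flanked by the lox sites.

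BMAL1 and CLOCK are proteins of the basic helix-loop-helix PAS family that bind DNA as a pair at E-box sequences. They drive the genes of their own inhibitors, the period and cryptochrome proteins, and of the nuclear receptors REV-ERB alpha and beta, which in turn repress Arntl, while ROR receptors activate it. Arntl RNA therefore cycles in most tissues, opposite in phase to many E-box targets, and Clock RNA is known to cycle weakly. The aP2 (Fabp4) promoter that drives Cre is strong in adipocytes and is known to be active in some macrophages and endothelial cells as well. In RNA of a whole fat pad, fewer cells that express a gene and less RNA per cell cannot be told apart.

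The elements through which REV-ERB and ROR proteins are known to act on Arntl lie at its start, and the RefSeq promoter sequences (GRCm38.p6, 250 bases before and 50 after an annotated start) are shown for that reason. The table held 2 windows for Arntl on chromosome 7 and 3 for Clock on chromosome 5, and the window of the downstream Arntl start (plus strand) and of the most upstream Clock start (minus strand) are given 5′ to 3′. Capitals mark the letters GAAAGTAGGT, which the Arntl window holds at 2 places.
Arntl, chr7:113207261-113207560: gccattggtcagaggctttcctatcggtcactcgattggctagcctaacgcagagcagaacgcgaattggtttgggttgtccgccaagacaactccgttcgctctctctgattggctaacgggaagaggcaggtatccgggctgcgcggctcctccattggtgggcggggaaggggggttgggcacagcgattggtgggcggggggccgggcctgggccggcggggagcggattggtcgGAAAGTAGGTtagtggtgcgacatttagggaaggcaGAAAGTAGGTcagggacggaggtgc
Clock, chr5:76304743-76305042: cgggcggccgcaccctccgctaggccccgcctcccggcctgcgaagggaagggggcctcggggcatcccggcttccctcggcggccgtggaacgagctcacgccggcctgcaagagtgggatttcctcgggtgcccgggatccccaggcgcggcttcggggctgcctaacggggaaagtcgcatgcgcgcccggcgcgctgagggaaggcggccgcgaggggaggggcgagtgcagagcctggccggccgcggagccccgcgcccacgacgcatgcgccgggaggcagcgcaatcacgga
These places were bases 240 to 249 and 276 to 285, counted from the 5′ end of the window. The downstream one overlaps a match to the ROR and REV-ERB response element, AAGTAGGTCA at bases 278 to 287, which ends in the nuclear receptor half-site AGGTCA. The other Arntl window overlaps this one and holds the upstream place only. Searched on both strands, GAAAGTAGGT occurred in 0.064% of 32851 windows of this length, the response element in 2.46% and AGGTCA in 16.3%. The repeat was chosen after the Arntl sequence was read, as the longest run that recurs in this window and overlaps the element. The printed Clock window held none of these, and of the 3 Clock windows the one furthest downstream held AGGTCA once, on the strand opposite to the gene. No window of either gene held the E-box CACGTG (7.15% of windows), its variant CACGTT (4.68%) or the D-box TTANGTAA (2.32%). These matches describe letters, and no binding was measured.

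Of the whole series, the array medians over the genes tested lay between 6.46 and 6.56, and the lowest correlation of an array within its group lay between 0.976 and 0.995. Of 12 adipocyte markers 11 were measured, from Slc2a4 at 7.05 to 8.06 to Fabp4 at 12.38 to 12.66 (log2 expression). Their mean was 10.23 on knockout replicate 2 at CT0 and at least 10.60 on every other array. On that same array epithelial markers read 7.40 on average, against 6.17 to 6.23 on the other arrays of that time. In earlier results of these data, 4 arrays lay toward the other genotype. They are replicate 1 at CT12 and replicate 3 at CT18, each in both genotypes. The labels were kept for all comparisons, and the values that change most are given both with 24 arrays and with the 20 others. Since genes that differ by genotype picked them out, p-values without them overstate the evidence, and the reason for their position, an exchange of labels within these same-numbered samples included, was not tested.

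Arntl fell through the subjective day in control fat. The change in knockout fat was smaller, and neither that change nor the difference between genotypes passed over all genes with 24 arrays. On the log2 expression scale, control arrays at CT0 read 7.97, 7.97 and 7.97, and knockout arrays 7.51, 7.30 and 7.49. By CT6 the controls had gone to 6.82, 6.82 and 6.54 and the knockouts to 7.08, 6.90 and 6.88. The knockouts thus lay wholly below the controls at CT0 and wholly above them at CT6. Ranges were separate with knockout lower for 4.47% of all genes at CT0 and with knockout higher for 5.01% at CT6. At CT12, the trough, control replicates 1, 2 and 3 read 6.75, 6.04 and 6.22, and the knockouts 6.46, 6.89 and 6.87. The ranges overlapped there because replicate 1 of each genotype, a pair named above, lay on the other genotype's side. Arntl was at 7.04, 7.38 and 7.55 in control fat at CT18 and at 7.43, 7.29 and 7.07 in knockout fat, again with overlap.

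**Figure D1:**
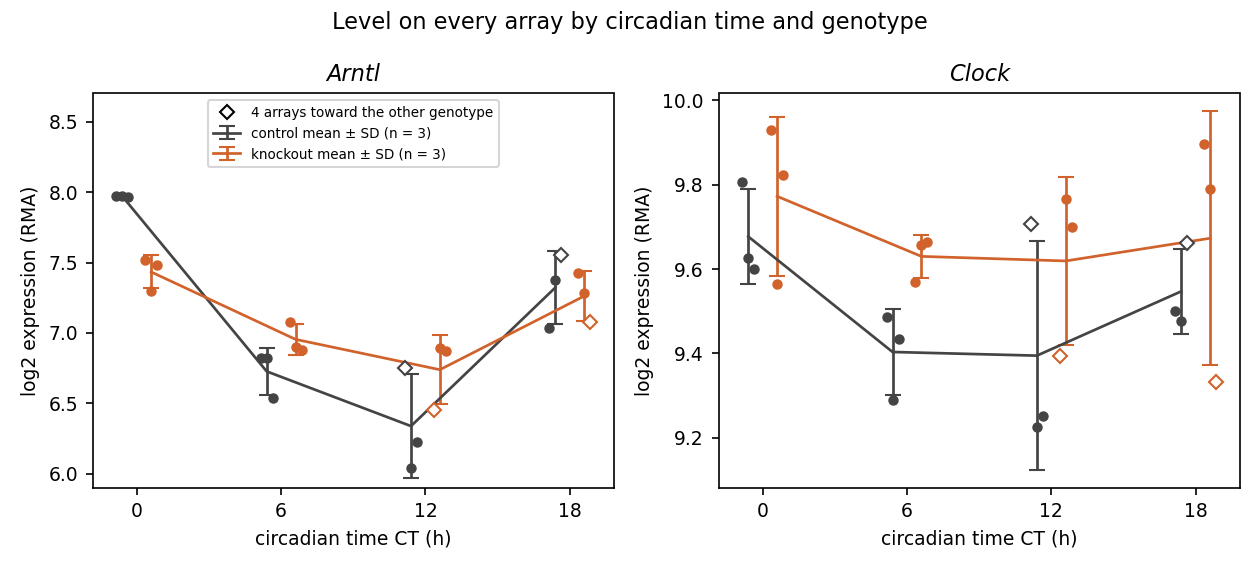
Log2 expression of Arntl (left) and Clock (right) against circadian time in hours. Points are single arrays, lines join group means with SD (n = 3 per group), and open diamonds are the 4 arrays that lie toward the other genotype. Arntl fell from 7.97 to 6.34 in controls between CT0 and CT12, where the knockout means were 7.43 and 6.74, while the knockout means of Clock lay above the control means at all 4 times.

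Ordered by group mean, Arntl was highest in control fat at CT0 (7.97 ± 0.0025, SD, n = 3), and this group did not overlap with the next, knockout at CT0 (7.43 ± 0.12). There followed control at CT18 (7.32 ± 0.26), knockout at CT18 (7.26 ± 0.18), knockout at CT6 (6.95 ± 0.11), knockout at CT12 (6.74 ± 0.25), control at CT6 (6.73 ± 0.16) and control at CT12 (6.34 ± 0.37). Each of these neighbours overlapped with the next. The 4 control means spanned 1.63 and the 4 knockout means 0.69, so that the knockout groups sat inside the control range at every time.

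In control fat the time course of Arntl passed the limma F test over the 4 times (adjusted p = 5.38e-05), the second smallest p of 19938 genes, where 0.0602% of genes passed. Between CT0 and CT12 Arntl fell by 1.63 on the log2 scale (SE 0.16, 95% CI -1.96 to -1.30, adjusted p = 1.91e-05), a 3.10-fold change. That was the smallest p of all genes in this comparison, in which 0.0401% passed. Most of this came in the step from CT0 to CT6, at -1.24 ± 0.16 (SE, adjusted p = 0.000948), where 0.0351% of genes passed. The step from CT6 to CT12 was -0.39 ± 0.16 (adjusted p = 0.981) and that from CT18 back to CT0 was 0.65 ± 0.16 (adjusted p = 0.544). From CT12 to CT18 Arntl rose by 0.98 ± 0.16 (adjusted p = 0.0179), where 0.0251% of genes passed. This last call was lost without control replicate 2 or 3 at CT12 (adjusted p = 0.279 and 0.161), without control replicate 2 or 3 at CT18 (0.125 and 0.220), and with all probe sets tested (0.0680). CT18 minus CT6 was 0.59 ± 0.16 (adjusted p = 0.289).

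In knockout fat the same difference from CT0 to CT12 was -0.69 ± 0.16 (SE, 95% CI -1.02 to -0.37), a 1.62-fold change, and did not pass (adjusted p = 0.100), where 0.0953% of genes did. It passed without control replicate 1 at CT12 (adjusted p = 0.0331 at the same difference), through a smaller estimate of the spread that the groups share. The F test over the 4 times gave adjusted p = 0.149, where 0.0702% of genes passed. The 4 steps from CT0 to CT6, CT12, CT18 and CT0 again were -0.48, -0.22, 0.52 and 0.17, each with SE 0.16 and adjusted p between 0.188 and 0.999. CT18 minus CT6 was 0.31 ± 0.16 (adjusted p = 0.445).

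The test of the difference between these courses did not pass over all genes. The change from CT0 to CT12 was less negative in knockout fat by 0.94 ± 0.22 (SE, 95% CI 0.48 to 1.40). This had the fourth smallest p of 19938 genes (unadjusted p = 0.000378, adjusted p = 1.00), and by limma 0 genes passed, with 696 (3.49%) at an unadjusted p under 0.05. The F test of the genotype by time interaction gave an unadjusted p of 0.00218 (adjusted p = 1.00), with 0 genes passed in limma and 595 (2.98%) under an unadjusted 0.05. With the 4 arrays left out the difference of changes was 1.29 ± 0.16 (adjusted p = 0.00764), and Arntl was the 1 gene of 19938 that passed. Genes that differ by genotype picked out those arrays, so this call overstates the evidence and is no independent support. The change from CT6 to CT18 differed by -0.29 ± 0.22 (95% CI -0.75 to 0.17), in a comparison where limma called 0 genes and 619 had an unadjusted p under 0.05.

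The same comparison can be put as the amplitude of the 24 h cosine through the 4 group means. For Arntl it was 0.87 in control and 0.38 in knockout fat on the log2 scale, so knockout reached 43.7% of control. The difference of -0.49 had a two-sided p of 0.00424 when genotype labels were exchanged within times in all 160000 ways, an exact permutation test. With each array left out in turn the difference stayed between -0.59 and -0.42, and p between 0.0013 and 0.0112. On the 20 other arrays the amplitudes were 0.95 and 0.34 (difference -0.61, exact permutation p = 0.00625 over 14400 exchanges). The fitted peak lay at CT22.7 in control and CT22.4 in knockout fat, and with 1 array left out at CT22.4 to CT22.9 and CT22.0 to CT22.8. With 4 times over a single cycle, a cosine cannot be told from another change over the day. The amplitudes of Clock were 0.16 and 0.08, a difference of -0.08 (p = 0.465 in the same exact test). With 1 array left out it ran from -0.15 (without control replicate 1 at CT12) to -0.027 (without knockout replicate 3 at CT18), and the knockout share of control from 18.6% to 83.0%. These 2 tests and those of the mean genotype difference of both genes make 4 permutation tests, whose p-values are not adjusted.

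Averaged over the 4 times, the genotype difference of Arntl did not pass. The mean difference, knockout minus control, was 0.01 ± 0.08 (SE, 95% CI -0.16 to 0.17, adjusted p = 0.997). On the 20 other arrays it was 0.15 ± 0.06 (95% CI 0.03 to 0.27), an interval above 0 that did not pass over all genes either (unadjusted p = 0.0191, adjusted p = 0.393 in limma). For this mean difference 0.0201% of genes passed, and 6.07% had an unadjusted p under 0.05. Of the 12 knockout arrays, 7 lay above the control mean of their time and 5 below. The differences at single times were -0.54 (95% CI -0.86 to -0.21) at CT0, 0.23 (-0.10 to 0.55) at CT6, 0.40 (0.07 to 0.73) at CT12 and -0.06 (-0.39 to 0.27) at CT18. Their unadjusted p-values in limma were 0.00255, 0.162, 0.0185 and 0.705, and none passed over all genes (adjusted p between 0.633 and 1.00). In limma 0 genes passed at CT0, CT6 or CT12, where an unadjusted p under 0.05 was reached by 1106 (5.55%), 752 (3.77%) and 497 (2.49%). At CT18 0.00502% of genes passed, and 6.05% had an unadjusted p under 0.05. The F test of a genotype difference at any of the times gave Arntl an unadjusted p of 0.00485 (adjusted p = 1.00), with 0 genes passed in limma and 783 under an unadjusted 0.05. Without the 4 arrays the difference was 0.75 ± 0.12 at CT12 (adjusted p = 0.0345), where 10 genes passed, and turned to 0.15 ± 0.12 at CT18 (adjusted p = 0.801). The F test at any time then gave Arntl an adjusted p of 0.0081, where 33 genes passed. These calls overstate the evidence, since genes that differ by genotype picked out the arrays left out. Whether the probe set lies in the deleted part of the gene is not known here, so these levels do not check the deletion.

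**Figure D2:**
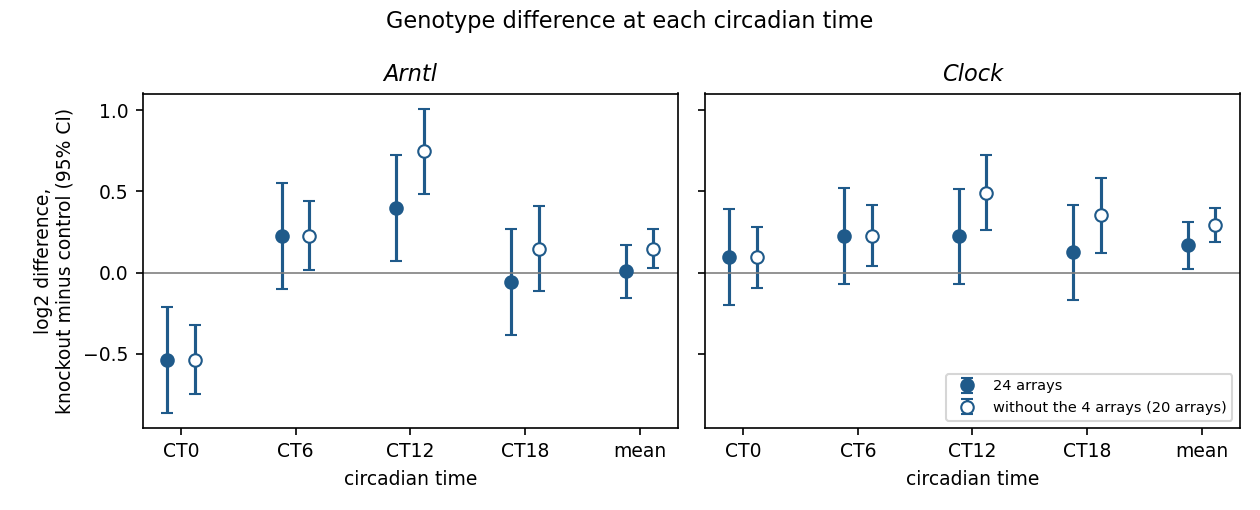
Log2 difference, knockout minus control, with its 95% confidence interval from limma, at each circadian time and as the mean over the 4 times, for Arntl (left) and Clock (right). Filled points use 24 arrays and open points the 20 without the 4 arrays that lie toward the other genotype. Arntl was -0.54 at CT0 and 0.40 at CT12, and Clock lay between 0.10 and 0.23 at the 4 times.

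Levels of markers of other cells also varied between the groups. The median genotype difference of 10 macrophage genes was -0.26 at CT0 (10 of 10 lower in knockout), 0.22 at CT6 (8 of 10 higher), 0.23 at CT12 (8 of 10 higher) and -0.25 at CT18 (10 of 10 lower), the same signs as Arntl at each time. The mean level of these markers ran from 8.39 to 8.87 in controls and 7.83 to 8.81 in knockouts at CT0, and from 8.64 to 8.82 and 8.74 to 9.17 at CT12. The 5 smooth muscle genes went the other way at CT0 and CT12, with medians of 0.55 and -0.53 (-0.50 at CT18), and levels of 8.44 to 10.26 in controls and 9.34 to 10.36 in knockouts at CT0. The 12 endothelial genes had medians of -0.03 at CT0 (8 of 12 lower in knockout), -0.15 at CT6, -0.25 at CT12 and -0.21 at CT18 (12 of 12 lower each time). Their mean level at CT12 was 8.16 to 8.21 in controls and 7.79 to 8.15 in knockouts. These ranges only just missed each other, with the nearest arrays at 8.161 and 8.151. Of all single genes, 5.12% lay wholly lower in knockout fat at CT12. No gene of these 3 lists passed over all genes, and the lowest readings of Adgre1 and Acta2 were 6.74 and 9.82. From CT0 to CT12 the macrophage genes had a median change of -0.002 in control fat (5 of 10 lower) and 0.52 in knockout fat (10 of 10 higher). Without knockout replicate 2 at CT0, the array with epithelial markers, the Arntl difference at CT0 was -0.47. The mean of the macrophage markers was 7.83 on that array and 8.58 and 8.81 on the other knockouts of that time. The controls there read 8.73, 8.39 and 8.87. The lower mean level of these markers in knockout fat at CT0 thus rests on that array. Part of their knockout change from CT0 to CT12 rests on it too. Of the 11 adipocyte genes, 11 were lower in knockout at CT0 (median -0.10), where knockout replicate 2 read lowest, and 9 at CT6 (-0.04). At CT12 10 were lower (-0.04) and at CT18 5 (0.03). The 6 T cell genes had medians of -0.06, -0.36, 0.10 and -0.25 at CT0, CT6, CT12 and CT18. Those of the 3 B cell genes were 0.09, -0.64, 0.18 and -0.06. At CT6 both lists had the opposite sign to Arntl, and the B cell list at CT0 too. In the differences by genotype, the part of these cell types was not tested.

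Clock read higher in knockout than in control fat on average, and the difference did not pass over all genes. At CT0 the control arrays read 9.81, 9.63 and 9.60 in log2 expression and the knockouts 9.93, 9.56 and 9.82, with overlapping ranges. Control fat at CT6 read 9.49, 9.29 and 9.43, and knockout fat 9.57, 9.66 and 9.66, all above the controls, as for 5.01% of genes. Both later times had overlapping ranges. For CT12, Clock stood at 9.71, 9.23 and 9.25 in control and 9.39, 9.77 and 9.70 in knockout fat. For CT18, it stood at 9.50, 9.48 and 9.66 in control and 9.90, 9.79 and 9.33 in knockout fat. Replicate 1 at CT12 and replicate 3 at CT18, the arrays named above, made the overlap, and each of the other knockouts of those times exceeded each of the other controls. Since genes that differ by genotype picked out those arrays, this separation of the rest is no evidence of a difference. The share of all genes separated in this way was not counted.

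The mean genotype difference of Clock was 0.17 ± 0.07 (SE, 95% CI 0.02 to 0.31), a 1.12-fold change, with 9 of 12 knockout arrays above the control mean of their time. It did not pass over all genes by limma (unadjusted p = 0.0268, adjusted p = 0.748). The exact permutation test within times gave p = 0.0308, and p between 0.0514 and 0.0680 when 1 of 9 arrays was left out: knockout replicate 1 at CT0 (0.0547), replicates 2 and 3 at CT12 (0.0636 and 0.0582) and 1 and 2 at CT18 (0.0680 and 0.0590), and control replicates 2 and 3 at CT12 (0.0640 and 0.0625) and 1 and 2 at CT18 (0.0514 and 0.0541). Without the 4 arrays the difference was 0.29 ± 0.05 with adjusted p = 0.00759, in a fit where 139 genes passed. That call overstates the evidence for the same reason, the way those arrays were picked out. At single times, with 24 arrays, it was 0.10, 0.23, 0.22 and 0.13 at CT0, CT6, CT12 and CT18, each with SE 0.14. On the 20 other arrays it was 0.49 at CT12 (95% CI 0.26 to 0.72, adjusted p = 0.196) and 0.35 at CT18 (95% CI 0.12 to 0.59, adjusted p = 0.408). With 1 array left out the value at CT0 ran from 0.016 (without knockout replicate 1) to 0.20 (without knockout replicate 2). The value at CT18 ran from 0.014 (without knockout replicate 1) to 0.30 (without knockout replicate 3). Over the day Clock passed no test. CT12 minus CT0 was -0.28 ± 0.14 (95% CI -0.58 to 0.01) in control and -0.15 ± 0.14 (95% CI -0.45 to 0.14) in knockout fat. On the 20 other arrays these changes were -0.44 (95% CI -0.65 to -0.23, adjusted p = 0.151) and -0.04 (95% CI -0.25 to 0.17), and without control replicate 1 at CT12 alone the control change was also -0.44. The F tests over time gave adjusted p = 0.921 in control and 0.858 in knockout fat with 24 arrays, and 0.385 and 0.676 with the 20. In the order of its 8 group means, from 9.77 ± 0.19 (SD, n = 3) in knockout fat at CT0 to 9.39 ± 0.27 in control fat at CT12, every neighbouring pair overlapped.

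Over the arrays of each genotype, taken across the 4 times, Clock was higher where Arntl was higher. For each genotype the permutation moved arrays across times. A course over the day shared by both genes would therefore also give a small p. Over the 12 control arrays Pearson's r was 0.775 (permutation p = 0.00376, adjusted 0.00587) and Spearman's rho 0.727 (p = 0.00948), and r was 0.694 without the 2 arrays farthest from the median of Arntl. Over the 12 knockout arrays r was 0.633 (permutation p = 0.0271, adjusted 0.0271) and rho 0.566 (p = 0.0578), and r fell to 0.351 without the 2 farthest arrays, so that relation rests on them. It also lost its call without knockout replicate 1 or 3 at CT0 (r = 0.552 and 0.600), replicate 1 at CT12 (0.487) or replicate 1 at CT18 (0.582). Over the 24 deviations from group means, which take out time and genotype, r was 0.737 (permutation within groups, p = 0.00391, adjusted 0.00587) and rho 0.684 (p = 0.00463), and 0.642 without the 2 farthest. Without the 4 arrays this last value was 0.193 (permutation p = 0.518, n = 20), so the relation within groups rests on those 4 arrays. Adjustment is over the 3 correlations, by Benjamini-Hochberg.

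**Figure D3:**
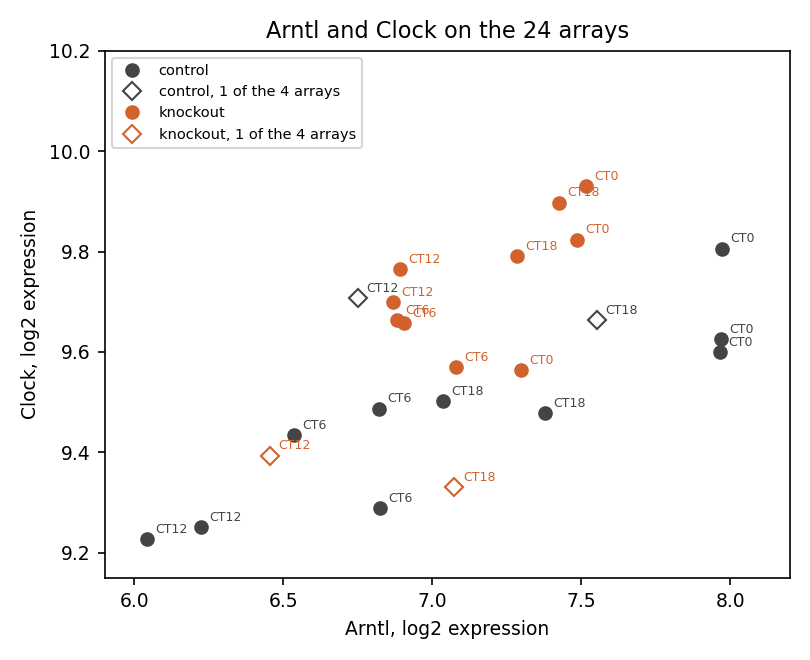
Log2 expression of Clock against Arntl on the 24 arrays, each labelled with its circadian time, controls in grey and knockouts in orange, the 4 arrays that lie toward the other genotype as open diamonds. Both genes rise together (r = 0.775 over 12 controls and 0.633 over 12 knockouts), and the 2 knockout diamonds lie among the controls.

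Among the other clock genes, 28 of a list of 32 were measured, and 4 are not analysed here. Of these 28, 1 passed for the mean genotype difference: Nr1d1, which encodes REV-ERB alpha, fell by 0.48 ± 0.08 (SE, adjusted p = 0.0438), against 0.0201% of all genes. This call was kept when any of 6 arrays was left out (knockout replicates 2 and 3 at CT0, and replicate 1 at CT12 and 3 at CT18 of each genotype) and lost without any of the other 18, at differences between -0.52 and -0.42 and adjusted p up to 0.140. It was also lost after quantile normalization (adjusted p = 0.0559), with a variance trend (0.0657) and with all probe sets tested (0.150). The median of the 28 was -0.07, beside 0.001 over all genes. On the 20 other arrays 5 of the 28 passed. Nr1d1 (-0.54), Nr1d2 (-0.46) and Per3 (-0.39) were lower, and Cry1 (0.35) and Nfil3 (0.57) were higher. In that fit 139 of all genes passed, against 4 with every array kept. Genes that differ by genotype picked out the arrays left out, so these 5 calls are no independent evidence of a difference. Arntl2, the paralogue of Arntl, lay between 6.22 and 6.58 on all arrays and differed by -0.07 ± 0.04 (95% CI -0.16 to 0.02). Of the ROR genes, which encode activators of Arntl, Rora differed by -0.04 ± 0.07 and Rorb by 0.14 ± 0.06, neither past the threshold (adjusted p = 0.983 and 0.755).

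Across the day, 5 of these 28 genes passed the F test in control fat and 5 in knockout fat, and all 5 were shared: Nr1d1, Nr1d2, Per3, Dbp and Hlf. They encode REV-ERB alpha and beta, a period protein and a pair of PAR bZIP output factors, and the background was 0.0602% and 0.0702% of genes. With each array left out the counts ran from 4 to 8 in control and 3 to 6 in knockout fat, and Nr1d1, Nr1d2 and Dbp passed each time in both. The knockout count was 3 without knockout replicate 1 or 2 at CT0, 1 at CT12 or 1 at CT18, and the control count 8 without knockout replicate 2 at CT0 or either replicate 1 at CT12. Nr1d1, which peaks before the trough of Arntl, had means of 8.45, 9.90, 8.95 and 7.41 at CT0, CT6, CT12 and CT18 in control fat and 7.96, 9.26, 8.49 and 7.09 in knockout fat. From CT0 to CT12 in control fat 5 of the 28 rose (Per3, Dbp, Nr1d2, Hlf and Tef) and 0 fell, with 0.0301% of all genes higher and 0.01% lower. In knockout fat 4 rose (Per3, Dbp, Hlf and Per2), with 0.0752% of all genes. The control count was 3 without control replicate 3 at CT0 and 2 without control replicate 3 at CT12. The knockout count was 0 without knockout replicate 1 at CT0 or at CT12 and 1 without knockout replicate 2 at either time. On the 20 other arrays 5 rose and 1 fell in control fat, where 17 of all genes passed. In knockout fat 1 rose, where 3 of all genes passed. With every array kept, 8 of all genes passed in control and 19 in knockout fat. The lower knockout count of clock genes thus came with fewer calls over all genes.

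Set side by side, the knockout change from CT0 to CT12 was 42.5% of the control change for Arntl (-0.69 and -1.63), and the changes were -0.55 and -1.84 on the 20 other arrays. Shares were computed only for genes whose control change was not small, and Clock had the smallest among them. The other clock genes of the list have no share here. Among the genes with a share, smaller ones were those of Nfil3, a repressor at D-boxes (14.8%, -0.13 and -0.91), and Ciart, a repressor of CLOCK and BMAL1 (21.0%, 0.13 and 0.61). Ciart read low, with group means of 5.14 to 5.75. Its F tests over time did not pass (adjusted p = 0.861 in control and 0.894 in knockout fat). The share was 54.3% for Clock (-0.15 and -0.28), 67.1% for Tef (0.40 and 0.59), 84.6% for Per3 (1.13 and 1.33), 89.2% for Hlf (0.88 and 0.99), 74.8% for Dbp (0.90 and 1.21) and 61.1% for Nr1d2 (0.72 and 1.17). Of the same genes, the knockout change was larger than the control change for Nr1d1 (104%), Per2 (111%), Bhlhe41 (144%) and Per1 (168%). For Bhlhe41 and Nr1d1 this depends on knockout replicate 2 at CT0, the array with epithelial markers. Bhlhe41 read 5.95 on it, against 7.94 and 7.63 on the other arrays of its group, and Nr1d1 read 7.47, against 8.14 and 8.28. These low readings enlarge both knockout changes. The unadjusted p for the difference of changes was 0.000378 for Arntl, 0.0456 for Nfil3, 0.0668 for Nr1d2, 0.149 for Ciart, 0.196 for Dbp, 0.383 for Per3 and 0.616 for Hlf. The adjusted p was 1.00 for each, and Arntl was not tested against the other genes.

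**Figure D4:**
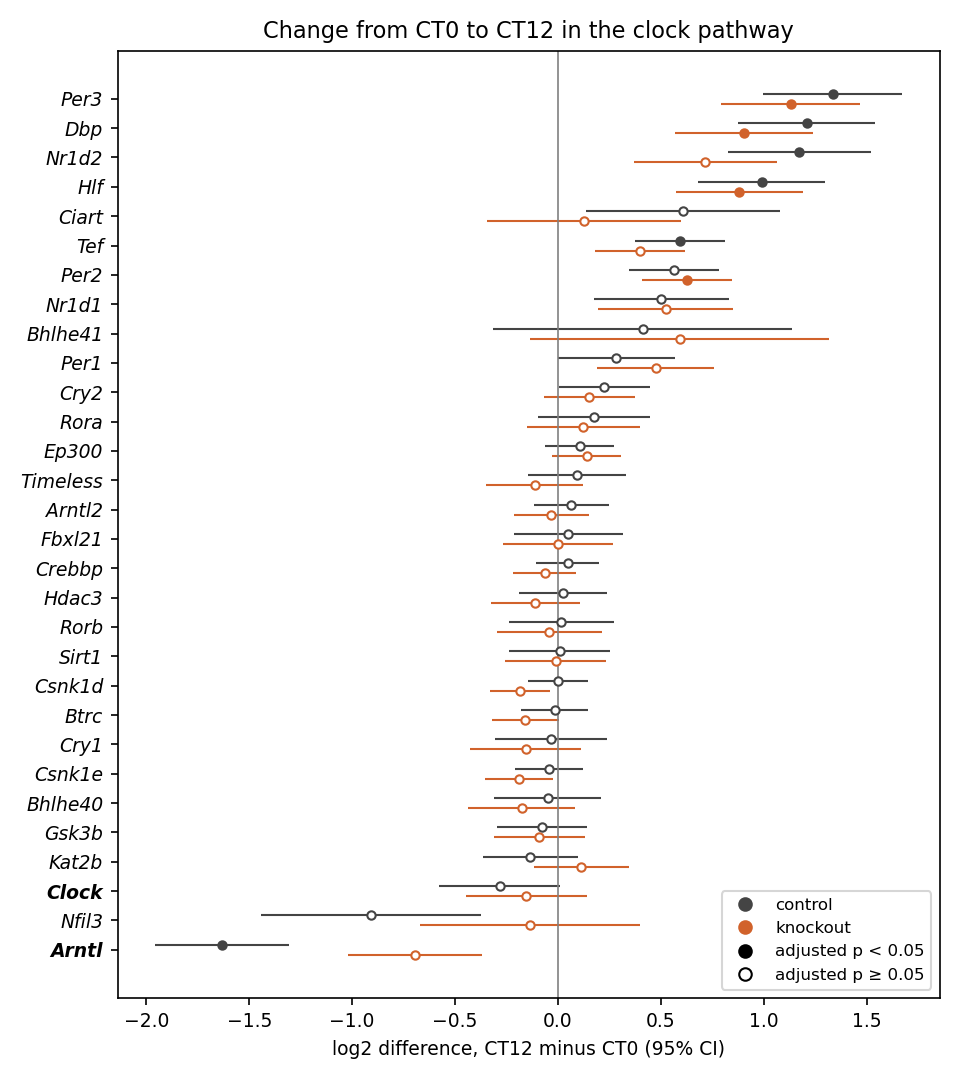
Log2 difference, CT12 minus CT0, with its 95% confidence interval for Arntl, Clock and 28 other clock genes, control in grey and knockout in orange, filled where the adjusted p was under 0.05. Arntl lies at -1.63 in control and -0.69 in knockout fat, while Per3 lies at 1.33 and 1.13.

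The genes most like each activator over the 24 arrays were ranked among 9968 genes at or above the median level. The values are Pearson's r, given with no test, and arrays of a time or genotype share their group. For Arntl the 5 highest were Sash1 (0.741), Calr (0.712), which encodes the chaperone calreticulin, Ier5 (0.697), Arhgap20 (0.694) and Clpx (0.663), a subunit of a mitochondrial protease. Clock ranked 17 at 0.622. Clpx followed Arntl over the 12 controls (0.846) and not over the 12 knockouts (0.101), where the other 4 lay between 0.683 and 0.850. The 5 lowest were Per3 (-0.895), Tef (-0.875), Hlf (-0.862), Dbp (-0.858) and R3hcc1l (-0.819), and 4 of these are clock genes that rise when Arntl falls. For Per3 the value was -0.981 over controls and -0.921 over knockouts.

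For Clock the 5 highest were Klhl13 (0.890), Nav3 (0.886), Dtx4 (0.860), Daam1 (0.837), a formin that acts on actin, and Crybg3 (0.804). The 5 lowest were Adamts1 (-0.808), a secreted protease, Chn2 (-0.805), Errfi1 (-0.782), a feedback inhibitor of the EGF receptor, Tcim (-0.776) and Tst (-0.770), a mitochondrial sulfurtransferase. No clock gene of the list was among these 10, and Arntl ranked 212 for likeness to Clock. The mean genotype difference was 0.37 ± 0.11 (SE) for Klhl13 and 0.27 ± 0.08 for Dtx4, among the highest in r, and -0.26 ± 0.11 for Adamts1, the lowest in r. None passed (adjusted p = 0.441, 0.441 and 0.755), and since r was taken over both genotypes, these signs are not independent of it.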

How the data were processed

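Log2 expression per probe set was deposited as the authors had normalized it, with RMA, per the submitters' processing notes (version: not given in the sources used here), and was used unchanged. Each array was made from 50 ng of RNA, per the labels' protocols. Arrays have no read depth, so their number sets the precision.

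The platform annotation gave 1 symbol to 21789 of 35556 probe sets and several to 1621, and the brightest single-symbol probe set of each gene was used (19938 genes). limma 3.58.1 in R 4.3.3 fitted a mean for each of the 8 groups (16 residual and 5.03 prior degrees of freedom), with p-values adjusted by Benjamini-Hochberg over all genes and a threshold of 0.05. Errors marked SE come from this model, and differences are knockout minus control or later minus earlier. Permutation tests used Python 3.11.15 and SciPy 1.17.1, with 100000 resamples for correlations. The model was also run on simulated data with independent normal noise, a check of the code and not of error rates on these arrays.

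The genes named are both activators, a list of clock genes, and the 5 of highest and lowest correlation with each activator. Members, lists and alternatives were chosen with earlier results of these data known. The alternatives were quantile normalization, a shift to one median, leaving out genes under 5, all probe sets, a variance trend, a replicate block, one time alone, and arrays left out. For the correlations and the clock gene list they were added after the data were seen. Promoter sequences are RefSeq's. Replicates are separate mice, per the labels.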

Additional observations from a re-analysis of the deposited data

Results flagged for a closer look

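The amplitude of Arntl differed between genotypes, by -0.49 on the log2 scale (0.87 in control and 0.38 in knockout fat, p = 0.00424 in the exact permutation test). The genotype difference of Arntl ran in opposite directions in every array at CT0 and CT6, at -0.54 and 0.23, with the knockouts below the controls at CT0 and above them at CT6. Ranges were separate in that direction for 4.47% of all genes at CT0 and 5.01% at CT6. The share of genes with both was not counted, and neither Arntl difference passed over all genes in limma. The amplitude was tested on 2 genes, and the interaction over all genes did not pass.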

How the results depend on the processing

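Quantile normalization, leaving out genes under 5, a variance trend and the 6 arrays of one time changed no sign and no call for Arntl or Clock. With all probe sets tested, the call for the Arntl rise from CT12 to CT18 in controls was lost. The shift to one median turned the Clock step from CT6 to CT12 in knockouts (0.0105). The deviations of same-numbered samples correlated at 0.189 to 0.374 at CT0 and at -0.37 to 0.157 at the other times, so the numbers were not taken to pair samples over the study. At CT0, where all 3 pairs were over 0.1, Arntl stayed at -0.54 with the replicate block within times (adjusted p = 0.784). With the replicate block the Arntl difference of changes was 0.94 and the mean Clock difference 0.17, and no member call changed, while the genes passed for the mean genotype difference went from 4 to 0.

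Without the 4 arrays, Arntl was 0.75 at CT12 and 0.15 at CT18 by genotype, its difference of changes was 1.29 and its adjusted p at any time 0.0081. Clock was 0.29 on average, its difference of changes from CT6 to CT18 was 0.13, and its knockout steps were 0.10 from CT6 to CT12 and -0.071 from CT18 to CT0. The correlations were 0.589 in knockouts and 0.193 within groups. Since genes that differ by genotype picked out these arrays, p-values without them overstate the evidence. The cause of their position was not tested.

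With 1 array left out, Arntl ranged from -0.029 to 0.059 for the mean genotype difference, -0.20 to 0.055 at CT18, and -0.77 to -0.55 for CT12 minus CT0 in knockouts. Clock ranged from 0.14 to 0.21 for the mean difference. For CT18 minus CT6 it ranged from -0.069 to 0.21 in knockouts and from -0.21 to 0.070 for the genotype difference. Its steps ranged from -0.16 to 0.076 (CT6 to CT12, control), -0.084 to 0.10 (the same, knockout), -0.059 to 0.22 (CT12 to CT18, knockout) and -0.071 to 0.21 (CT18 to CT0, knockout). The knockout correlation ranged from 0.487 to 0.762.

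Counts over all genes moved more. For the mean genotype difference, 4 became 0 with quantile normalization, all probe sets or the variance trend, 9 without genes under 5 and 139 without the 4 arrays. For CT12 minus CT0, 8 in controls became 5 with quantile normalization or all probe sets and 17 without the 4 arrays, where 19 in knockouts became 3. Over time, 14 in knockouts became 23 with either normalization, 5 with all probe sets and 4 without the 4 arrays, where 12 in controls became 24. By genotype at one time, 0 at CT6 became 9 with those 6 arrays alone.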
